A study of Mus musculus with 8 samples.

Results

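The 7 genes Kcnk3, Otop1, P2rx5, Slc36a2, Slc7a10, Letmd1 and Pm20d1, which serve as channel, transporter and other markers of brown or white adipocytes, were followed in brown adipose tissue with and without adipocyte Adcy3. They were taken from a list of gene names, and all 7 were found among the 54385 Ensembl identifiers of the count table and among the 14553 genes that passed the filter on low counts. The study sequenced polyadenylated RNA from 8 tissue samples of C57BL/6N mice aged 20 weeks on a chow diet. Every mouse carried floxed alleles of Adcy3 (Adcy3-FL/FL), the gene of the cyclic AMP-producing enzyme adenylyl cyclase 3. The 4 controls (WT) are the libraries titled so, 3 of them without Cre (Adipoq-wt/wt), and the 4 knockouts (cKO) carry 1 Cre allele under the adiponectin promoter (Adipoq-wt/cre), which acts in all fat cells, white as well as brown, and not in the vessels, nerves or immune cells of the tissue. The sample labels name the tissue interscapular and the design text calls it inguinal; WT replicate 4 is a control by title but has the Cre genotype entry. It was kept as a control.

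Brown adipocytes burn fuel for heat when noradrenaline raises cyclic AMP. Their surface carries ion channels and amino acid carriers that are scarce in white adipocytes, so some of these proteins are used to tag or sort brown cells. Potassium, proton and ATP-gated channels set the membrane potential and ion balance of the cell, amino acid carriers bring in small neutral amino acids, and mitochondrial and secreted proteins act on respiration itself.

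Libraries held 10713043 to 32437214 estimated counts, and the 7 genes had between 149 (Slc7a10, cKO replicate 2) and 18746 counts (Letmd1, WT replicate 1) in a library. Values below are TMM-scaled CPM (counts relative to the library total, adjusted for library composition), with SDs over 4 libraries. The labels do not say that libraries came from separate animals, and a p-value here reflects only how these libraries scatter. Adcy3 stood at 112, 118, 61.7 and 118 CPM in WT replicates 1 to 4 and at 17.95, 20.9, 25.3 and 21.5 CPM in cKO replicates 1 to 4, so that the groups did not overlap (edgeR log2 fold change -2.26 with an SE of 0.21, adjusted p = 0.000925). WT replicate 4 was at the level of the other controls. The defining brown fat transcript Ucp1 was abundant in both groups (2571 ± 324 CPM in WT, 3167 ± 1025 CPM in cKO), and none of the 19 listed brown adipocyte markers was at 0. Skeletal muscle RNA varied within both groups, with a mean log2 CPM over 14 muscle genes of 1.57 at the lowest (WT replicate 1) and 9.03 at the highest (cKO replicate 1).

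Gene starts were searched because the deleted enzyme makes cyclic AMP and promoters are where cyclic AMP-responsive factors can bind. The start of 3 of the 7 genes is shown. The sequence source used here held no window for Kcnk3, P2rx5, Slc36a2 and Pm20d1, so these were not searched. The windows run from 250 bases before to 50 bases after the start of the gene in RefSeq, on the plus strand, on GRCm38.p6, and capitals mark CG dinucleotides. They lie at chr15:100468761-100469060 for Letmd1, chr5:38277154-38277453 for Otop1 and chr7:35186135-35186434 for Slc7a10. The RefSeq start of Otop1 lies downstream of the first start in GENCODE, so its window falls within the gene span given further on.
Letmd1: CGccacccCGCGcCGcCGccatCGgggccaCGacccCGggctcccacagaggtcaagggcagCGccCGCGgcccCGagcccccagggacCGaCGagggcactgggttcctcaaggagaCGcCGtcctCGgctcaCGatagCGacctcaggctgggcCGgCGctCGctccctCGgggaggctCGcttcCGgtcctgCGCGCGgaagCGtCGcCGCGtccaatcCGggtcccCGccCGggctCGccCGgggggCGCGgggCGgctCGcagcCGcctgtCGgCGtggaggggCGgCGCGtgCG
Otop1: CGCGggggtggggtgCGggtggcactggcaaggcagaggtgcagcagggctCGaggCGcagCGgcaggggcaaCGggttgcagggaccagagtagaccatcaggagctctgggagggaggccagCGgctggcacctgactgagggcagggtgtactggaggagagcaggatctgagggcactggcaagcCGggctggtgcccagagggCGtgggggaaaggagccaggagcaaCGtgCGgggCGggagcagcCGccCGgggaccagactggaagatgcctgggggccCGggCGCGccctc
Slc7a10: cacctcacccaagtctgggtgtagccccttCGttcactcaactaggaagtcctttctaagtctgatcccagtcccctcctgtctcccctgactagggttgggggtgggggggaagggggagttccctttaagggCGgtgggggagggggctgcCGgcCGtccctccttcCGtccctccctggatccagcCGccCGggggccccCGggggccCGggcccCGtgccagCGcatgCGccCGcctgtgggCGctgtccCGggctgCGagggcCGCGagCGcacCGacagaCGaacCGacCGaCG
The Letmd1 window held 48 CG dinucleotides, that of Slc7a10 24 and that of Otop1 18, against a median of 7 over 32851 windows, and their G+C content was 79.0%, 70.7% and 71.7% against a median of 52.7%. On both strands, none of the 3 held the cyclic AMP response element TGACGTCA (found in 1.79% of all windows), its shorter form TGACG, which lies within it (20.8%), the exact direct repeat bound by PPAR and RXR, with 1 free base inside it (0.0396%), or the palindromic EBF motif (0.904%). This says only that these letters are not in these windows.

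Per kilobase of exon, the 7 genes spanned a wide range in control tissue. Levels between genes are compared here as counts per kilobase of exon scaled to the same sum in each library (a TPM scale, used only for levels). The length of a gene is that of all its annotated exons merged, which can exceed the length of its transcripts. Slc36a2 was the most abundant of the 7 with 295 ± 25.2 TPM in WT, rank 237 of 14544 tested symbols, followed by Letmd1 (208 ± 14.8 TPM, rank 325) and Kcnk3 (186 ± 8.86 TPM, rank 355). Otop1 stood at 128 ± 15.2 TPM and P2rx5 at 49.6 ± 5.64 TPM. The lowest levels belonged to Slc7a10 (15.5 ± 3.04 TPM, rank 3604) and Pm20d1 (6.16 ± 0.960 TPM, rank 6823). In WT each gene lay apart from its neighbour in this order, and the order held in 4 of 4 libraries for every neighbouring pair. In cKO the order was the same, but Slc36a2 (229 ± 18.4 TPM) and Letmd1 (207 ± 17.3 TPM) overlapped and kept their order in 3 of 4 libraries. Slc36a2, Letmd1, Kcnk3, Otop1 and P2rx5 thus stood above the white fat marker Slc7a10, and Pm20d1 stood below it. The place of Pm20d1 depends on this length, as its merged exons span 7028 bases, against 2111 for Slc7a10. In CPM, Pm20d1 (22.3 in WT) was above Slc7a10 (16.8).

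**Figure D1:**
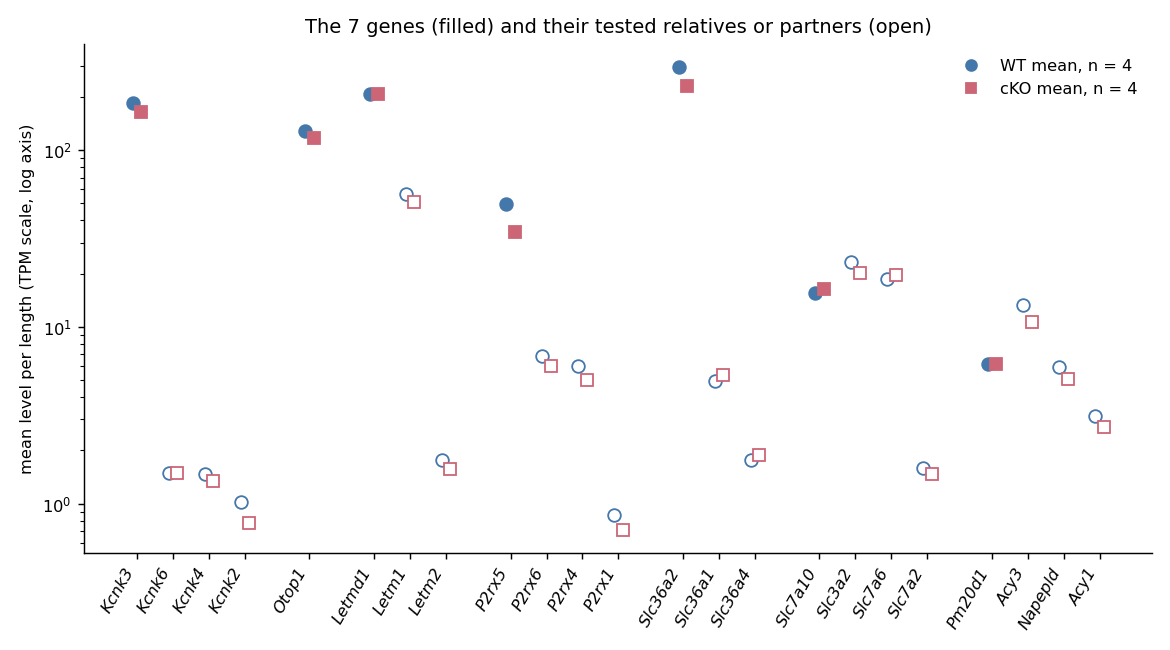
Mean level per length on the TPM scale (log axis) in WT (blue circles) and cKO (red squares), n = 4 libraries each, for the 7 genes (filled) and up to 3 tested relatives or partners of each (open). Kcnk3, P2rx5 and Slc36a2 stand well above every relative shown, whereas Slc7a10 and Pm20d1 lie below the highest of theirs.

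None of the 7 genes passed edgeR's quasi-likelihood test at a Benjamini-Hochberg adjusted p of 0.05 over all genes, against 0.0687% of all genes tested, and DESeq2 and limma-voom also called 0. At an unadjusted p under 0.05 there was 1 of the 7, P2rx5, against 5.6% of all genes, and for 0 of the 7 did the libraries of the groups separate, against 3.5% of all genes. Of the fold changes 5 were positive and 2 negative, with a median of 0.11 on the log2 scale, whereas all genes had a median of 0.01 and quartiles of -0.14 and 0.15. In bulk tissue, fewer cells of a type and less RNA per cell cannot be told apart.

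**Figure D2:**
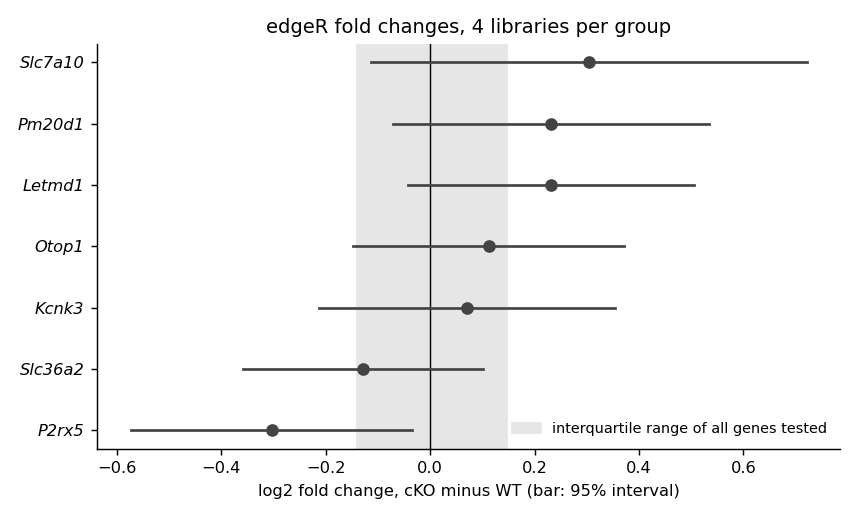
Fitted log2 fold change of cKO minus WT (points) with its 95% interval (bars) for the 7 genes, over the interquartile range of the fold changes of all genes tested (grey). Every interval but that of P2rx5 (-0.57 to -0.03) includes 0.

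Of the 3 channels among the 7 genes, P2rx5 had the lowest fold change. It encodes an ATP-gated cation channel of the P2X family, used as a surface marker of brown and beige adipocytes, and lies on chromosome 11 at 73160421 to 73172685 (plus strand, GRCm38). Its CPM was 67.5, 61.4, 50.1 and 65.4 in WT replicates 1 to 4 and 55.9, 46.6, 52.3 and 43.2 in cKO replicates 1 to 4. Each cKO library lay below the WT mean, but WT replicate 3 fell within the cKO range, so the groups overlapped. The means were 61.1 ± 7.76 and 49.5 ± 5.68 CPM, a log2 fold change of -0.30 ± 0.12 (SE, 95% interval -0.57 to -0.03, edgeR adjusted p = 0.882, unadjusted p = 0.0302), so that cKO tissue held 81.0% of the WT level. The log2 fold change kept its sign under 20 of 20 alternative settings (-0.52 to -0.18), and its unadjusted p was under 0.05 in 14 of them. It was above 0.05 without any 1 of WT replicates 1, 2 and 4 or cKO replicates 2 and 4 (log2 fold change -0.29 to -0.24), and with WT replicate 4 moved to cKO (-0.18, unadjusted p = 0.253). With the muscle level as a covariate the log2 fold change was also -0.30. Markers of blood vessel endothelium moved the same way, with 8 of 8 log2 fold changes negative (median -0.14) and 1 at an unadjusted p under 0.05, against 5.6% of all genes. Their summed level was 521 to 808 CPM in WT and 509 to 601 CPM in cKO. Schwann and nerve markers had 5 of 7 negative (median -0.31) and mural markers 4 of 8 (median -0.08). The medians of muscle (0.59), fibroblast (0.13), lymphoid (0.12) and macrophage markers (0.0064) were positive. The part of these cell types in the P2rx5 values was not tested.

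Kcnk3 encodes TASK-1, a two-pore potassium leak channel that holds the membrane potential and in brown adipocytes counteracts depolarisation under adrenergic drive. It lies on chromosome 5 at 30588170 to 30625271 (plus strand), where the minus-strand transcript Gm9899 overlaps it. Kcnk3 shares 5.97% of its 31-base sequences with other genes, mainly Gm9899. WT replicates 1 to 4 had 404, 357, 355 and 406 CPM and cKO replicates 325, 487, 405 and 382 CPM. The cKO libraries included both the highest and the lowest value, and their SD (66.9 CPM) was larger than that of WT (28.3 CPM). The means of 381 and 399.6 CPM gave a log2 fold change of 0.07 ± 0.13 (SE, 95% interval -0.21 to 0.35, edgeR adjusted p = 0.969), that is 0.863 to 1.28 times the WT level. Without cKO replicate 2 the sign turned (-0.039). Reads from the stretch shared with Gm9899 cannot be told apart without strand information. Gm9899 had group means of 40.5 ± 6.71 (WT) and 43.0 ± 6.61 CPM (cKO).

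Otop1 encodes otopetrin 1, a proton-selective channel that is also found in sour taste cells, and lies on chromosome 5 at 38275972 to 38304217 (plus strand). It had 251, 242, 213 and 199.8 CPM in WT replicates 1 to 4 and 237, 285, 232 and 225 CPM in cKO replicates 1 to 4. Only cKO replicate 2 exceeded the WT range. The log2 fold change was 0.11 ± 0.12 (SE, 95% interval -0.15 to 0.37, edgeR adjusted p = 0.929) and ranged from 0.030 (without that library) to 0.16 (without WT replicate 1) when 1 library was left out.

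**Figure D3:**
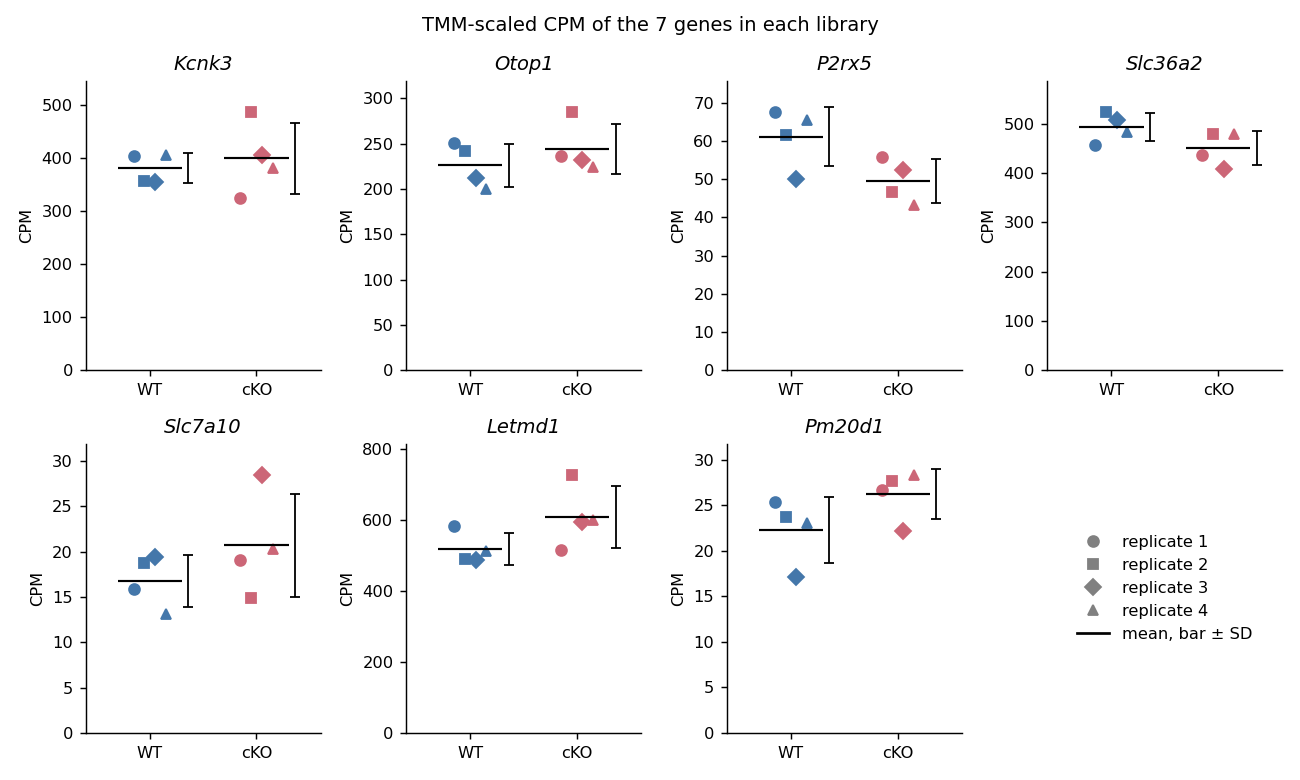
CPM of each gene in every library (symbols mark replicates 1 to 4), with the group mean (line) and ± SD (bar to the right), n = 4 per group and axes from 0. All 7 genes overlap between WT (blue) and cKO (red); cKO replicate 2 (squares) has the highest Kcnk3, Otop1 and Letmd1, and cKO replicate 3 (diamond) the highest Slc7a10.

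The amino acid carriers of brown and white fat differed in abundance, and their fold changes, none past the test, had opposite signs. Slc36a2, chromosome 11 at 55158470 to 55185077 (minus strand), encodes PAT2, a proton-coupled carrier of small amino acids such as glycine and proline that marks the surface of brown and beige adipocytes. WT replicates 1 to 4 had 457, 524, 507 and 484 CPM and cKO replicates 436, 479.7, 409 and 479 CPM. In cKO 2 libraries lay below the WT range, and each lay below the WT mean. With 493 ± 28.9 and 451 ± 34.7 CPM it had the smallest relative spread of the 7 genes (5.87% of the mean in WT, 7.70% in cKO). The log2 fold change was -0.13 ± 0.11 (SE, 95% interval -0.36 to 0.10, edgeR adjusted p = 0.901). Slc36a2 shares 4.03% of its 31-base sequences with other genes, mainly Slc36a1.

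Slc7a10 encodes Asc-1, a carrier of small neutral amino acids that marks the surface of white adipocytes, and lies on chromosome 7 at 35186385 to 35201114 (plus strand). It stood at 15.9, 18.7, 19.4 and 13.1 CPM in WT replicates 1 to 4 and at 19.1, 14.9, 28.5 and 20.3 CPM in cKO replicates 1 to 4. The highest value was that of cKO replicate 3, and the remaining cKO libraries reached from inside the WT range to just above it. The log2 fold change of 0.30 ± 0.19 (SE, 95% interval -0.11 to 0.72, edgeR adjusted p = 0.895) ranged from 0.11 (without cKO replicate 3) to 0.43 (without cKO replicate 2, unadjusted p = 0.0355) when 1 library was left out, and came to 0.10 with WT replicate 4 moved to cKO. Lrp3, which overlaps it on the minus strand and holds most of the 14.9% of its 31-base sequences found elsewhere, had group means of 25.7 ± 2.28 (WT) and 24.2 ± 1.52 CPM (cKO).

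Slc36a2 and P2rx5, the 2 of the 7 genes with negative log2 fold changes, were also set against Slc7a10 within each library. The brown fat channels Kcnk3 (log2 fold change 0.07) and Otop1 (0.11) were not used in these ratios. Slc7a10 was the only white marker used, and 4 of the 8 tested white and beige markers had negative values. As Slc7a10 had the highest log2 fold change of the 7 genes (0.30), lower mean ratios in cKO follow from this choice of genes. The log2 ratio of Slc36a2 to Slc7a10 CPM was 4.85, 4.81, 4.71 and 5.20 in WT replicates 1 to 4 and 4.51, 5.01, 3.84 and 4.56 in cKO replicates 1 to 4. In 3 of 4 cKO libraries it lay below the WT range, and in cKO replicate 2 within it. The log2 ratio of P2rx5 to Slc7a10 was 2.09, 1.71, 1.37 and 2.32 in WT and 1.55, 1.65, 0.876 and 1.09 in cKO, with 2 cKO libraries below the WT range. These ratios are descriptions without a test, and as they are not corrected for length they compare libraries and not genes.

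Letmd1 and Pm20d1 are not surface proteins. Letmd1, on chromosome 15 at 100469023 to 100479164 (plus strand), encodes a mitochondrial LETM-domain protein that brown fat needs for respiration and heat production. It had 583, 491, 487 and 514 CPM in WT replicates 1 to 4 and 515, 728, 595 and 599.9 CPM in cKO replicates 1 to 4. In cKO 3 of 4 libraries lay above the WT range, and cKO replicate 1 lay within it. The means were 519 ± 44.3 and 609 ± 88.4 CPM (log2 fold change 0.23 ± 0.13 SE, 95% interval -0.04 to 0.50, edgeR adjusted p = 0.890). With 1 library left out the value ranged from 0.13 (without cKO replicate 2) to 0.31 (without cKO replicate 1, unadjusted p = 0.0294). The unadjusted p was under 0.05 in 3 of 20 alternatives.

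Pm20d1 encodes a secreted enzyme that joins fatty acids to amino acids and splits the products again; these N-acyl amino acids can uncouple respiration. The gene lies on chromosome 1 at 131797381 to 131821473 (plus strand). It stood at 25.3, 23.7, 17.1 and 23.1 CPM in WT replicates 1 to 4 and at 26.6, 27.7, 22.2 and 28.4 CPM in cKO replicates 1 to 4. As for Letmd1, 3 of 4 cKO libraries exceeded the WT range, and cKO replicate 3 lay within it. The log2 fold change was 0.23 ± 0.14 (SE, 95% interval -0.07 to 0.53, edgeR adjusted p = 0.893) and ranged from 0.13 (without WT replicate 3, which had the lowest level) to 0.30 (without cKO replicate 3) when 1 library was left out.

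With the muscle level as a covariate, edgeR called 0 of the 7 genes and every one kept its sign, with Slc7a10 at a log2 fold change of 0.37 (adjusted p = 0.798) and Letmd1 at 0.26 (adjusted p = 0.802). The scale mattered more for the signs. Transcripts of the mitochondrial genome held 56.96% ± 1.96 of the per-length total in WT and 62.0% ± 1.81 in cKO, and with libraries scaled by that total the median of all genes moved from 0.01 to -0.22. Kcnk3 (-0.17), Otop1 (-0.12) and Letmd1 (-0.0060) then had negative log2 fold changes. Those of Slc7a10 (0.07) and Pm20d1 (0.0050) came close to 0. Those of Slc36a2 (-0.36, unadjusted p = 0.00567, adjusted p = 0.119 by edgeR) and P2rx5 (-0.52, adjusted p = 0.110) lay further below it. Relative to the median of all genes on that scale, Kcnk3 stood at 0.05, Otop1 at 0.10, Letmd1 at 0.21, Slc7a10 at 0.29, Pm20d1 at 0.22, Slc36a2 at -0.14 and P2rx5 at -0.31, against 0.06, 0.10, 0.22, 0.29, 0.22, -0.14 and -0.31 on the TMM scale.

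The 7 genes did not move as one across libraries. By Pearson r, Kcnk3 and Letmd1 had the highest correlation of log2 CPM over the 8 libraries (r = 0.84, Spearman rho = 0.57). Their r was 0.93 when each library was taken relative to its group mean. Otop1 and Letmd1 followed (r = 0.71, rho = 0.45). The highest rho of all pairs was that of Letmd1 and Pm20d1 (0.69), with r = 0.58, and r = 0.52 without cKO replicate 2. Slc7a10 had its lowest r over the 8 libraries with Slc36a2 (r = -0.50, rho = -0.40), and with Letmd1 (-0.058) and Otop1 (-0.064) its r was close to 0. By rho, Slc7a10 was lowest with P2rx5 (-0.50). Without cKO replicate 2 its r was also lowest with P2rx5 (-0.61, against -0.51 with Slc36a2). Relative to group means it was lowest with Pm20d1 (-0.61). These coefficients describe 8 libraries that differ in depth and composition, which all genes of a library share, and they carry no p-value. Kcnk3, Letmd1 and Otop1 were all highest in cKO replicate 2, the library with the fewest counts, at 0.33, 0.38 and 0.28 log2 units above their means over the 8 libraries. Over the other 7 libraries r was 0.60 for Kcnk3 with Letmd1 and 0.32 for Otop1 with Letmd1, and those of Slc7a10 with Letmd1 and Otop1 turned positive (0.38 and 0.31).

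**Figure D4:**
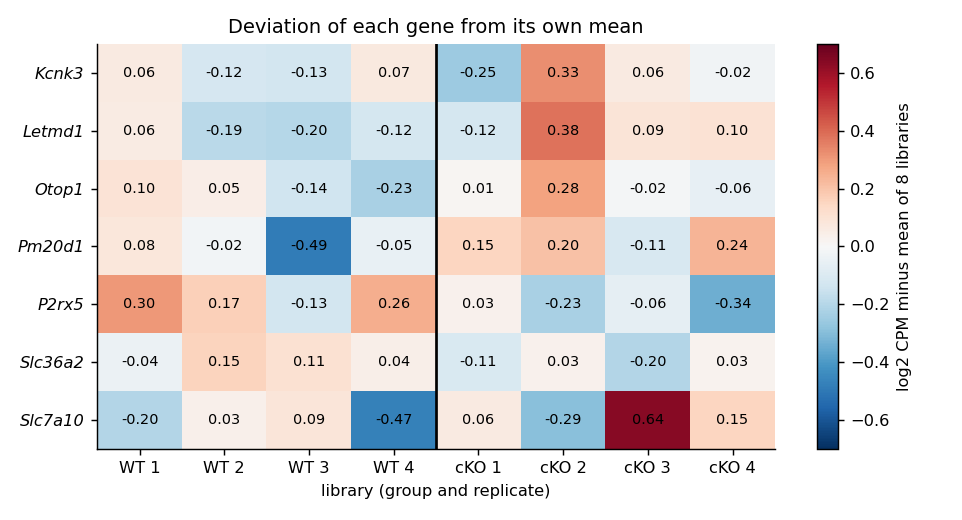
Deviation of each gene from its own mean log2 CPM over 8 libraries (colour and printed value), with WT on the left of the black line and cKO on the right. Kcnk3, Letmd1 and Otop1 are highest in cKO replicate 2, P2rx5 is highest in WT replicate 1 (0.30) and lowest in cKO replicate 4 (-0.34), and Slc7a10 is highest in cKO replicate 3 (0.64).

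Among 12291 other protein-coding genes with a mean of at least 1 CPM, the gene most like each of the 7 over the 8 libraries was found by Pearson correlation of log2 CPM. For Slc7a10 it was Retn, the adipokine resistin and a white fat-enriched transcript, at r = 0.97 with the same order of libraries (rho = 1.0), followed by the glucose transporter genes Slc2a3 and Slc2a2 (both r = 0.94). The group means of Retn were 40.9 ± 5.58 (WT) and 48.8 ± 11.2 CPM (cKO). For Letmd1 the closest were Pla2g7 (r = 0.99), Sod2, the mitochondrial superoxide dismutase (0.98), and Zfc3h1 (0.97), and for Pm20d1 they were Gpd2, the mitochondrial glycerol phosphate dehydrogenase (0.98), E130308A19Rik (0.98) and Opa1, a mitochondrial fusion protein (0.98). P2rx5 was most like Kcmf1 (0.97), Brd2 (0.95) and Cnbp (0.93), and Slc36a2 like Mroh1 (0.96), Pank4 and Slc25a14 (both 0.93). Kcnk3 was most like Car15 (0.97), Ddx17 and Tef (both 0.96), and Otop1 like Lsm14b (0.95), Klhl11 and Acsl5 (both 0.94). As each is the highest of 12291 coefficients over 8 points, these values describe likeness and were not tested. Some of the genes named were near the limit of 1 CPM, with WT means of 1.22 (Car15), 1.04 (Klhl11), 1.42 (Slc25a14) and 1.36 CPM (Slc2a2).

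The families of these genes were compared to see which member the tissue used. Kcnk3 made up nearly all of the two-pore potassium channel transcripts: Kcnk6 and Kcnk4 were at 1.49 and 1.48 TPM and Kcnk2 at 1.02 TPM in WT, against 186 TPM for Kcnk3. Of 14 listed channels of this family 5 were tested, and Kcnk15 was at 0 in all libraries. Otop1 was the only otopetrin tested, as Otop2 and Otop3 had 1 count each over the 8 libraries. Among P2X receptors, P2rx5 (49.6 TPM) stood above P2rx6 (6.85 TPM) and P2rx4 (5.99 TPM), a receptor common on macrophages. P2rx6 had a log2 fold change of 0.04 and P2rx4 of -0.02, P2rx7, a low transcript here (0.779 TPM), had -0.44 (SE 0.28, edgeR adjusted p = 0.896), and 4 of the 6 tested P2X genes had negative values.

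Slc36a2 likewise exceeded its relatives, with Slc36a1, a lysosomal amino acid carrier, at 4.95 TPM and Slc36a4 at 1.77 TPM in WT. Slc36a1 had 13.3, 14.4, 15.5 and 13.97 CPM in WT replicates 1 to 4 and 15.7, 21.1, 15.4 and 20.3 CPM in cKO replicates 1 to 4. Its log2 fold change of 0.34, with an SE of 0.14 (adjusted p = 0.882 by edgeR, unadjusted p = 0.0309), had the opposite sign to that of Slc36a2, and 3 of 4 cKO libraries lay above the WT range. In the SLC7 family, Slc3a2, the heavy chain that partners Slc7a10 and several other carriers, was at 23.4 TPM in WT and had a log2 fold change of 0.02. Slc7a6 (18.6 TPM in WT) had group means of 43.9 ± 5.64 (WT) and 54.6 ± 6.39 CPM (cKO), and its log2 fold change was 0.31 (adjusted p = 0.882 by edgeR, unadjusted p = 0.0264).

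Letm1, which encodes a cation exchanger of the inner mitochondrial membrane, was at 56.4 TPM in WT, below Letmd1, with a log2 fold change of 0.08, and Letm2 was at 1.76 TPM. Among enzymes of N-acyl amino acids and related compounds, Acy3 (13.2 TPM) stood above Pm20d1 and Napepld (5.94 TPM) close to it in WT. In WT CPM, not divided by length, Acy3 (13.9) was below Pm20d1 (22.3). Faah, which can also split N-acyl amino acids, was low at 0.217 TPM. All 7 of these enzymes were tested and 0 were called, against 0.0687% of all genes, with 4 positive and 3 negative log2 fold changes. Of the other ion channels listed for brown adipocytes, Lrrc8a, a volume-regulated anion channel subunit, averaged 51.6 ± 5.03 (WT) and 43.7 ± 7.27 CPM (cKO). Stim1, a sensor of calcium stores, had 118 ± 18.6 and 126 ± 12.2 CPM, and the mechanosensitive channel Piezo1 had 103 ± 11.99 and 84.3 ± 14.6 CPM. On the log2 scale these 3 genes differed by -0.24 (edgeR adjusted p = 0.890), 0.10 (0.949) and -0.28 (0.886), in that order. Of the 69 listed relatives, partners and other channels, 45 were tested and edgeR called 0, against 0.0687% of all genes. Of the 45, 2 (Slc36a1 and Slc7a6) had an unadjusted p under 0.05, a level that 5.6% of all genes reached. DESeq2 and limma-voom called 0, and the median log2 fold change was 0.03 with 27 positive and 18 negative.

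Of the 19 listed brown adipocyte markers, 4 of which belong to the 7 genes, edgeR called 0, against 0.0687% of all genes. At an unadjusted p under 0.05 there were 5 of the 19, a level that 5.6% of all genes reached. These 5 went both ways, with log2 fold changes of -0.30 for P2rx5, -0.41 for Cox8b and -0.38 for Cox7a1, both subunits of cytochrome c oxidase, and of 0.79 for Prdm16 and 0.72 for Zic1, both transcription factors of the brown lineage. The list had 13 positive and 6 negative log2 fold changes and a median of 0.21. Of the 8 tested white and beige markers 0 were called and 0 had an unadjusted p under 0.05, with 4 positive and 4 negative. The positive log2 fold changes were those of Slc7a10 (0.30), Agt (0.29), Retn (0.26) and Wfdc21 (0.20), and the negative ones those of Hoxc8 (-0.30), Nnat (-0.14), Lep, the gene of leptin (-0.026), and Dpt (-0.0066). The 14 muscle genes all had positive log2 fold changes (median 0.59), with 0 called, 0 at an unadjusted p under 0.05, and a summed level of 74.1 to 8844 CPM in WT and 195 to 11254 CPM in cKO.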

How the data were processed

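RNA of 8 tissue samples (4 WT, 4 cKO) was sequenced as paired-end NEBNext Ultra II RNA libraries, per the labels' protocols. The authors deposited 1 table of estimated counts per Ensembl gene; StringTie, Salmon, edgeR and GRCm38 are named in the submitters' processing notes, and the sources used here give no versions, strand setting or annotation. GENCODE M21 (GRCm38) named 54131 of 54385 identifiers (99.5%). Columns were matched to libraries by the identifier in the label, and libraries were grouped by title.

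Estimated counts were rounded, filtered with filterByExpr, scaled by TMM and tested in R 4.3.3 by the quasi-likelihood method of edgeR 4.0.16 with robust dispersions, with group as the only term and Benjamini-Hochberg adjustment over all 14553 genes. Log2 CPM carries a prior count of 2. Alternatives used DESeq2 1.42.0, limma 3.58.1, other scalings and filters, a muscle covariate, a replicate block, each library left out and WT replicate 4 moved; scaling by counts per length was added after seeing the data. No 2 libraries of a group agreed within sampling noise (lowest chi-square per degree of freedom 14.5). Shared 31-base sequences and promoter motifs were counted with Python 3.11.15. Beyond the 7 genes and Adcy3, the text names up to 3 genes per related list by level per length, the 3 most alike per gene, and genes given as overlapping or at an unadjusted p under 0.05. Faah, Otop2, Otop3, Kcnk15, Ucp1, P2rx7, Cox8b, Cox7a1, Prdm16, Zic1, Retn, Lep, Agt, Wfdc21, Hoxc8, Nnat, Dpt, Slc36a1 and Slc7a6 are also named where a count or result refers to them. The genes and lists were chosen with earlier results of these data known.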

Additional observations from a re-analysis of the deposited data

Results flagged for a closer look

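Among the values given per library, 24 groups of 4 were checked for a library far from the others, and 1 stood out. Adcy3 in WT replicate 3 was at 61.7 CPM, whereas the other WT libraries were at 112 to 118 CPM, and the gap made up 0.892 of the range of the group. About 1 in 20 groups is expected to stand out in this way by chance. Of the 4 WT libraries, the same one had the lowest Kcnk3, Letmd1, P2rx5 and Pm20d1 and the highest Slc7a10. None of the 7 genes had such a library in either group.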

How the results depend on the processing

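The count of 0 called genes among the 7, and among their 45 tested relatives, was the same under all 20 alternatives. P2rx5, Slc36a2, Slc7a10 and Pm20d1 kept the sign of their log2 fold change in 20 of 20, over ranges of -0.52 to -0.18, -0.36 to -0.084, 0.07 to 0.43 and 0.0050 to 0.30. Kcnk3 turned negative without cKO replicate 2 (leave-one-out range -0.039 to 0.16), and Kcnk3 (-0.17), Otop1 (-0.12) and Letmd1 (-0.0060) did so with libraries scaled by counts per length, where the median of all genes is -0.22. Over all genes edgeR called 10, against 47 by DESeq2, 93 without a filter on low counts, 20 with scaling by counts per length, 1 with WT replicate 4 moved to cKO, and 8 to 14 with 1 library left out. Adcy3 lost its call with WT replicate 4 moved to cKO (log2 fold change -1.26, adjusted p = 0.747) and with the replicate block (-2.23, adjusted p = 0.225); the cause was not tested. The labels do not say that same-numbered WT and cKO libraries are paired. The deviations of same-numbered libraries 1 to 4 correlated at -0.46, 0.04, 0.41 and 0.0016, too few and too varied to decide whether they are. With the replicate block 7 genes were called, 0 of them among the 7 described here (P2rx5 -0.30, Slc7a10 0.28). Slc7a10 had the fewest counts of the 7 genes, with 149 in cKO replicate 2.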
